A study of Homo sapiens with 2 samples.

Results

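The 1167 promoter peaks described here were called from NRF-1 chromatin immunoprecipitation both in control cells and in cells depleted of AATF. After AATF depletion these peaks stood lower in the order of peaks. They were selected on measured values. A member is a pair of peaks in which the siControl peak overlapped exactly 1 siAATF peak and the reverse also held, on chromosomes 1 to 22 and X, with a −log10 q of at least 5 in siControl and with the siControl peak within 1 kb of the start of a protein-coding transcript. Each whole list was ranked by the fold enrichment of its peaks, from a percentile of 0 for the weakest to 100 for the strongest, and pairs whose siAATF rank was more than 10 points below the siControl rank were kept. Of 9345 promoter pairs that met every condition except the change in rank, 1167 fell (12.5%), 7147 stayed within 10 points and are called steady, and 1031 rose by more than 10 points. The falling pairs were 6.48% of the 18014 siControl peaks, against 18454 peaks in the siAATF list, and lay at 1272 coding genes, with 1 coding gene at each of 1048 pairs.

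NRF-1 chromatin was profiled in U251 cells, an established human glioblastoma cell line, after transfection with a control siRNA (siControl) or an siRNA against AATF (siAATF). All cells were of this 1 line, and both libraries were made with the same NRF-1 antibody. The series design text names U138 cells, whereas the sample labels name U251, and the labels were followed. Each condition gave 1 peak list labelled replicate 1, although the experiment is described as a duplicate, so no spread between replicates and no test between conditions could be computed. No expression was measured in these files, so neither the depletion of AATF nor the cell type could be checked from marker genes.

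NRF-1 recognises, as a dimer, a GC-rich palindrome close to transcription starts. This transcription factor is best known for activating nuclear genes for mitochondrial proteins, including subunits of oxidative phosphorylation (OXPHOS), and it also occupies promoters of many genes for translation, the cell cycle and RNA processing. AATF is a nuclear cofactor of RNA polymerase II transcription that also takes part in ribosome production. The comparison asked at which shared promoters the NRF-1 peak lost standing when AATF was depleted.

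The NRF-1 site itself was read from the genome. Among palindromes of 10 letters, GCGCATGCGC had the largest excess in the 1000 siControl peaks of highest −log10 q, where it was present in 190 peaks and in 0 windows of equal width 5 kb downstream. Of the falling pairs, 21 held this exact core. The 8 of them with the highest siControl −log10 q are printed because they are members in which a strong peak with a perfect site lost rank, with the core in capitals and 10 bases on each side, on the plus strand of GRCh37/hg19.
PCMTD2: caggcccgcgGCGCATGCGCagtcaggccg
HASPIN: ctggcgaggtGCGCATGCGCagggccggga
EID2B: tgcgagacctGCGCATGCGCgagtctcagt
SMAP2: tgggggcgggGCGCATGCGCgagctgggca
ZNF652: gagcggcggcGCGCATGCGCagccctcggg
RBMX2: cgccggggccGCGCATGCGCtgcgctgcct
GRB2: aggtgtcaggGCGCATGCGCcagacctccc
POP4: ccctttccagGCGCATGCGCccccgaggtg
These windows lie at chr20:62887030-62887059 (PCMTD2), chr17:3627114-3627143 (HASPIN), chr19:40023492-40023521 (EID2B), chr1:40839329-40839358 (SMAP2), chr17:47439730-47439759 (ZNF652), chrX:129535933-129535962 (RBMX2), chr17:73401895-73401924 (GRB2) and chr19:30097093-30097122 (POP4). The core of PCMTD2 overlapped an annotated UTR, those of HASPIN and ZNF652 overlapped an exon without an annotated UTR, and the other 5 lay outside annotated exons. Except in ZNF652, where it lay 90 bp downstream, the core was upstream of the nearest coding start, by a distance that ran from 13 bp in RBMX2 to 120 bp in GRB2.

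The peaks over these 8 perfect cores had a −log10 q between 64.5 and 77.7 in siAATF. HASPIN, a mitotic kinase of histone H3, had a −log10 q of 88.6 in siControl and 64.9 in siAATF, and its rank went from 72.5 to 56.5. At EID2B, of a family of inhibitors of EP300-dependent transcription, the −log10 q was 88.3 and 64.5 and the rank 68.5 and 46.8, a change of -21.7 points and the largest of the 8. GRB2, the adaptor that couples receptor tyrosine kinases to Ras, stood just past the limit, with ranks of 79.3 and 69.3. RBMX2, an RNA-binding protein, kept a rank of 82.8 after 94.7, and POP4, a subunit of RNase P, one of 65.7 after 80.5. All 8 kept a siAATF rank of at least 46.8.

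The largest falls lacked the NRF-1 core, which was rare at their significance. None of the 12 pairs with the most negative change held the core even with 1 mismatch. Their siControl −log10 q ran from 6.22 to 14.9. In the lowest and second-lowest quintiles of siControl −log10 q, which hold these values, the core was present in 1.71% and 4.07% of all eligible pairs. Stretches outside annotated exons are shown for 4 of them, SPOCK3, PTPRD, MX1 and GLRA2, as examples of promoters that lost most rank. Each is the longest such stretch of its peak, whereas the windows above were centred on a core, so the windows are not alike in choice. CpG dinucleotides are in capitals, on the plus strand of GRCh37/hg19.
SPOCK3: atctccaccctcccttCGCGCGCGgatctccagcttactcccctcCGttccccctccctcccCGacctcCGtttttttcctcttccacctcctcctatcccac
PTPRD: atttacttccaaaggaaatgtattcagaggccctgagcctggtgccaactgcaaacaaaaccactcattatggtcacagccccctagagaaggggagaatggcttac
MX1: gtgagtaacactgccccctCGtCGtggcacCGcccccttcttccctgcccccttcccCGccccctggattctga
GLRA2: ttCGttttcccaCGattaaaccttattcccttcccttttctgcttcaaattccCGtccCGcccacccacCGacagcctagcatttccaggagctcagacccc
They lie at chr4:168155742-168155844 (SPOCK3), chr9:8733673-8733779 (PTPRD), chr21:42792368-42792441 (MX1) and chrX:14547318-14547419 (GLRA2). The SPOCK3 stretch of 103 bases held 7 CpG and was rich in runs of C and T. The 107 bases of PTPRD held 0 CpG, the 74 bases of MX1 held 4, and the 102 bases of GLRA2 held 5.

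At SPOCK3, which codes for the extracellular proteoglycan testican-3, the fold enrichment was 8.15 in siControl and 3.96 in siAATF, and the rank went from 82.2 to 18.1. The −log10 q of the same pair was 10.8 and 2.36. PTPRD, a receptor-type protein tyrosine phosphatase, had ranks of 78.9 and 21.8 and a −log10 q of 10.5 and 2.73. These members combined a high fold enrichment with a modest −log10 q in siControl. MX1, an interferon-induced GTPase, went from a rank of 67.8 to 15.1, and its −log10 q from 11.6 to 2.47. GLRA2, a glycine receptor subunit, went from 81.6 to 34.1. EIF3F, a subunit of the translation initiation factor eIF3, had ranks of 71.0 and 25.2 and a −log10 q of 10.8 and 3.19. PLPP5, a lipid phosphatase gene, completed the 4 falls of more than 50 points, with ranks of 88.1 and 34.5 and a −log10 q of 14.9 and 4.10. The other 6 of the 12 lay at COQ5 with RNF10, DNAH7, ABHD1, TMDD1, AVPR1B and GGTA1, with changes from -44.3 to -39.99 points. Among them COQ5, a methyltransferase of coenzyme Q synthesis, shares its promoter with RNF10, and the pair had ranks of 77.6 and 33.2. In all 12 the siAATF −log10 q was under 5.

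Most members moved far less than these. The change in rank of the 1167 pairs had a median of -15.1 points, with quartiles of -19.95 and -12.2. It was under -20 in 288 pairs, under -30 in 79, under -40 in 11 and under -50 in 4. The median rank was 64.4 in siControl and 47.2 in siAATF, and the median fold enrichment was 6.82 and 5.42. Members came from almost the whole order, with siControl ranks from 13.2 to 99.2, and 125 of them still had a siAATF rank above 75. Just inside the limit stood HNRNPH1, a splicing regulator, at -10.01 points, DDB2, a DNA damage sensor, at -10.03, and FAM53B at -10.04. Just outside it were MYBBP1A at -9.99, RASA1, a Ras GTPase-activating protein, at -9.98, and HAS3, a hyaluronan synthase, at -9.96.

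**Figure D1:**
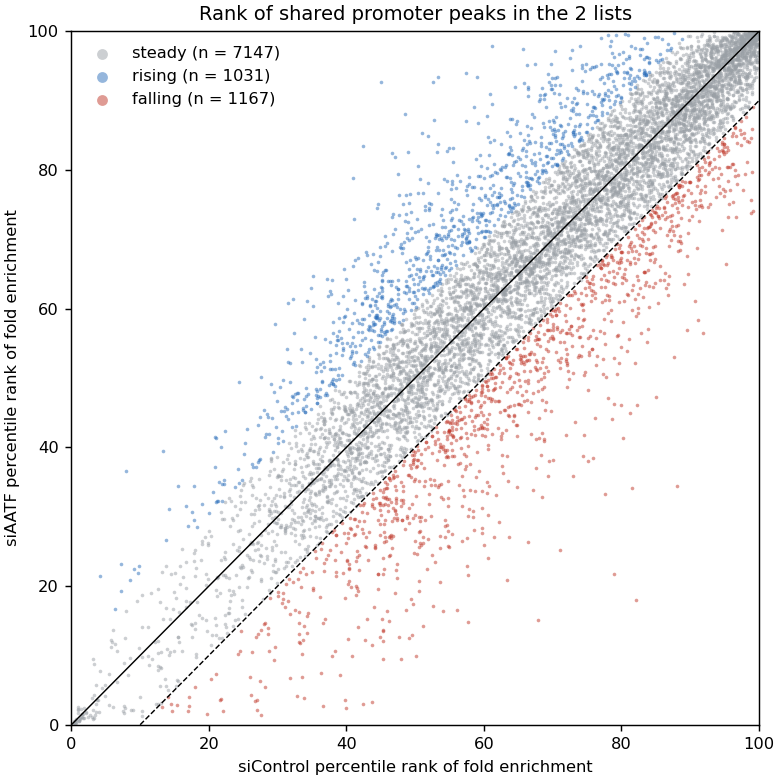
Percentile rank of fold enrichment of each of the 9345 eligible promoter pairs in siControl (horizontal axis, 0 to 100) and siAATF (vertical axis, 0 to 100), coloured by class. The solid line marks equal rank and the dashed line the limit of 10 points below it; the 1167 falling pairs lie under the dashed line, most of them close to it, and SPOCK3 is the lowest for its siControl rank, at 82.2 and 18.1.

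The share of 12.5% was not high for these lists. Among all 11963 one-to-one pairs on the same chromosomes with a siControl −log10 q of at least 5, promoter or not, 1736 fell by the same rule, 14.5%. Counted by gene, with each gene represented by its most significant eligible pair, 1193 of 10101 coding genes fell, 11.8%, and 10.7% rose. The falling share was highest for siControl ranks between 50 and 60, at 15.7%, and was 7.69% for ranks above 90. Ordered by siControl −log10 q, the lowest quintile held 385 falling and 395 rising pairs and the highest 98 and 20. That excess of falls among the most significant peaks narrowed to 70 and 42 when quintiles were set by the siAATF −log10 q, and was 86 and 29 by the mean of both, orders added after seeing the data; a pair with a siControl rank above 90 could not rise by the rule. Between chromosomes the falling share ran from 6.08% on chromosome 13 (95% interval 3.07 to 10.6) to 15.5% on chromosome 11 (12.4 to 19.0). Intervals for shares are exact Clopper-Pearson 95% intervals throughout and cover counting error only, since peaks are not replicates of a condition.

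The balance between falling and rising pairs rested on the filter. A minimum −log10 q was asked of siControl alone, and 299 falling pairs (25.6%, 23.1 to 28.2) had a −log10 q under 5 in siAATF, against 1.79% of steady pairs (1.496 to 2.13). With a −log10 q of at least 5 required in both lists, 868 pairs fell (9.73%) and 1031 rose (11.6%), so that rising pairs were then the more numerous. With no minimum, 1392 fell (12.6%) and 1558 rose (14.1%).

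A measure from the same lists that entered the filter but not the ranking gave nearly every member the same direction, with a smaller shift. The −log10 q, which grows with the number of reads as well as with the enrichment, was lower in siAATF in 1166 of 1167 falling pairs, and in 74.4% of steady pairs. Its median among members was 12.6 in siControl and 8.26 in siAATF, and the median ratio was 0.670, against 0.923 in steady pairs. Ranked by −log10 q within each list, 1163 members stood lower in siAATF and 4 did not, by a median of -8.52 points. Only 463 members (39.7%) stood more than 10 points lower on that scale. Fold enrichment and −log10 q are computed from the same reads of the same peak, so their shared direction is not a second measurement. A minimum −log10 q was also asked of siControl alone, which favours pairs that are higher there. The direction of −log10 q among members is therefore not free of the selection.

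**Figure D2:**
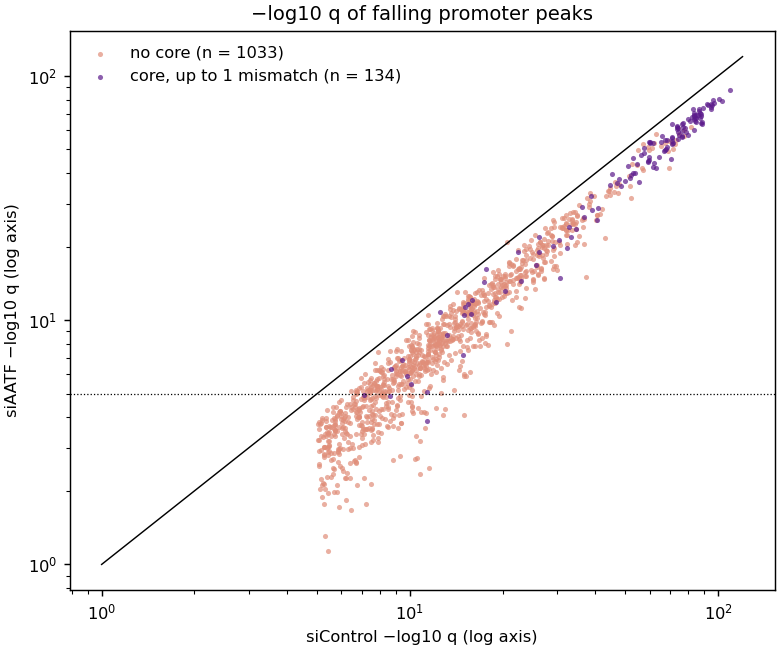
The −log10 q of the 1167 falling pairs in siControl (horizontal) and siAATF (vertical), both on log axes, for 134 pairs with the NRF-1 core (up to 1 mismatch) and 1033 without. The solid line marks equal values and the dotted line a −log10 q of 5; pairs with the core gather at the upper right, with a median of 64.8 in siControl, and 296 of the 299 pairs below the dotted line lack the core.

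The NRF-1 core was scarce among the falling pairs. With up to 1 mismatch it was present in 134 of 1167, 11.5% (9.71 to 13.5), against 31.6% of steady pairs (30.5 to 32.7), 8.44% of rising pairs (6.81 to 10.3) and 26.5% of all eligible pairs. In windows of equal width 5 kb downstream it was found beside 0.514% of falling pairs (0.189 to 1.12). The exact core was present in 1.80% of falling (1.12 to 2.74) and 5.08% of steady pairs (4.58 to 5.61). Turned around, 5.41% of the 2477 eligible pairs with a core fell (4.55 to 6.38), and 15.04% of the 6868 without one (14.2 to 15.9).

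Most of that difference went with the significance of the peaks. The siControl −log10 q had a median of 12.6 in falling and 28.5 in steady pairs, and the share of peaks with a core grows with it. In the lowest quintile of −log10 q the core was present in 1.04% of falling (0.284 to 2.64) and 1.75% of steady pairs (1.05 to 2.71). In the middle quintile the shares were 4.57% (2.21 to 8.24) and 8.99% (7.55 to 10.6). In the highest quintile they were 80.6% (71.4 to 87.9) and 82.7% (80.8 to 84.4). The falling share was the lower one in each of the 5 quintiles, and the intervals overlapped in each. Steady pairs given the same distribution over these quintiles as the members would hold the core in 13.9%, and over 20 bins in 13.6%, beside the 11.5% of the members.

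**Figure D3:**
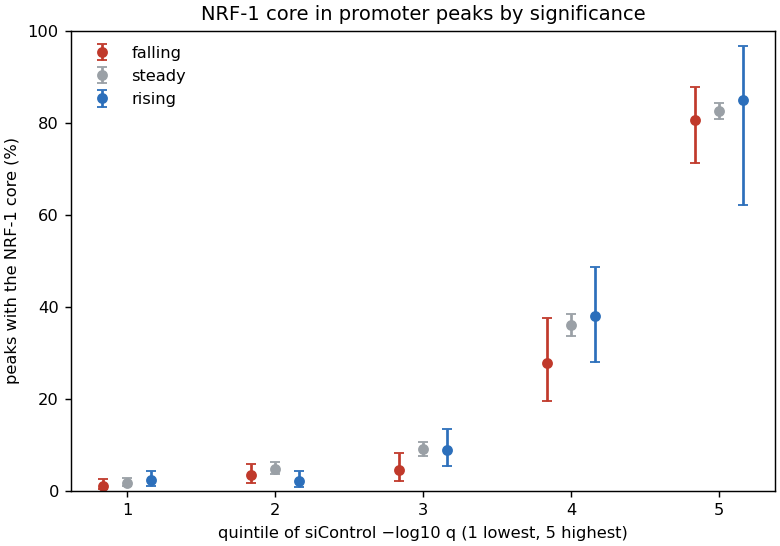
Share of promoter pairs whose siControl peak held the NRF-1 core with up to 1 mismatch (vertical axis, percent), by quintile of the siControl −log10 q (horizontal axis, lowest to highest), for falling, steady and rising pairs. Points are shares and bars exact 95% intervals from counting error; the share climbs from 1.04% to 80.6% in falling pairs and from 1.75% to 82.7% in steady pairs, with overlapping bars in every quintile.

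Falling pairs with a core were the more significant ones and fell less. Those with a core had a median siControl −log10 q of 64.8, a median change of -12.7 points and 3 peaks under a −log10 q of 5 in siAATF. Those without one had a median of 11.7, a median change of -15.5 points and 296 such peaks. A change under -20 points was reached by 12 of 134 pairs with a core (8.96%) and 276 of 1033 without (26.7%). Rising pairs also moved less with a core, by a median of 13.8 points, than without one, by 14.6 points. The change in rank chose the members, and its size was not compared at equal −log10 q. The exception among exact cores was JAK3, a Janus kinase of cytokine receptors that is named here after its value was seen. Its core lay 282 bp downstream of the nearest coding start, its ranks were 63.6 and 27.0 and its −log10 q was 11.3 and 3.87, so it had both the lowest siControl −log10 q of the 21 exact-core members and the largest fall of any member with a core.

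The members with the highest siControl −log10 q show what a fall meant for strong peaks. All 12 held the core with up to 1 mismatch, as did 82.6% of all eligible pairs in the highest quintile of siControl −log10 q. The core word was itself found in the siControl peaks of highest −log10 q, so its presence here is no separate result. ZNF583, a zinc finger gene, had a −log10 q of 109.6 in siControl and 87.9 in siAATF and ranks of 77.0 and 63.2. APOLD1, an apolipoprotein L domain gene of endothelial cells, had a −log10 q of 102.8 and 78.7. The midpoint of this peak lay 1432 bp downstream of the nearest coding start, the farthest of any member, beside a median of 72 bp. By fold enrichment these peaks fell by 10.5 to 17.6 points, the latter at MKNK1, a kinase that phosphorylates eIF4E, whose ranks were 94.3 and 76.7. Ranked by −log10 q the 12 moved by -0.351 points, at ZNF583, to -2.39 points, at FAM222B. DHDDS, an enzyme of dolichol synthesis, with ranks of 96.1 and 84.9, and TMEM70, an assembly factor of ATP synthase, with ranks of 88.3 and 77.8, were among them.

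In the falling pairs with a core, the core nearest to the peak midpoint lay at a median of -17 bp from the nearest coding start, negative values being upstream, and at -23 bp in steady pairs. It was within 150 bp upstream in 57.5% and 58.4%, respectively. The peak midpoint was a median of 72 bp from the nearest coding start in falling and 68 bp in steady pairs. A coding start lay inside the siControl peak in 90.8% of falling (89.0 to 92.4) and 96.2% of steady pairs (95.7 to 96.6), and falling peaks were narrower.

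Width moved with rank. The siControl peak of a falling pair had a median width of 680 bp, against 913 bp for steady and 847 bp for rising pairs. In siAATF the falling peaks widened to a median of 803 bp, while rising peaks narrowed to 749 bp. The siAATF peak was the wider one in 906 falling pairs (77.6%, 75.1 to 80.0), in 60.6% of steady pairs (59.4 to 61.7) and in 20.3% of rising pairs (17.9 to 22.9). Neither the fold enrichment nor the −log10 q was adjusted for the called width in the comparisons above, so neither is free of it. Fold enrichment is an average over the called peak, so a peak called wider at the same signal has a lower value.

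For that reason the fold was also multiplied by the width, an alternative added after seeing the data. The product was lower in siAATF in 72.6% of falling pairs (69.9 to 75.1) and in 73.7% of steady pairs (72.7 to 74.7), with median ratios of 0.923 and 0.968. When both lists were ranked by the product, 418 pairs fell by more than 10 points, 511 rose, and only 157 of the 1167 members (13.5%) were among those that fell. The 261 members whose siAATF peak was not wider had a median change of -14.8 points and a median −log10 q ratio of 0.620, beside -15.3 points and 0.688 for the wider ones. The part of the called width in the falls was not tested further.

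**Figure D4:**
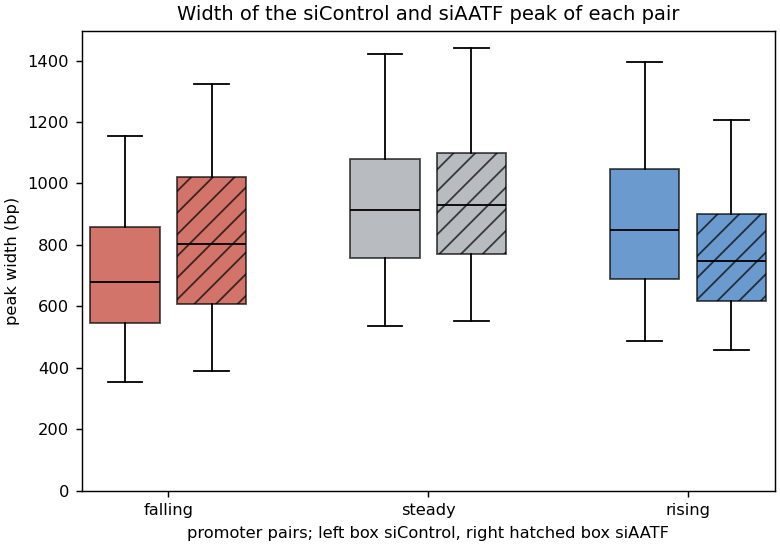
Width in bp of the siControl peak (plain box) and siAATF peak (hatched box) of falling, steady and rising promoter pairs. Boxes span the quartiles with the median as a line and whiskers reach the 5th and 95th percentiles; the median goes from 680 to 803 bp in falling pairs and from 847 to 749 bp in rising pairs.

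Base composition separated the falling pairs little. The median GC content of the siControl peak was 68.2% in falling and 68.1% in steady pairs, and the ratio of observed to expected CpG was 0.818 and 0.832. CpG-poor promoters, with a ratio under 0.6, made up 6.77% of falling pairs (5.396 to 8.37), 3.43% of steady pairs (3.02 to 3.88) and 5.82% of rising pairs (4.47 to 7.43). PTPRD, with a ratio of 0.452, was 1 of these 79 falling promoters. Within quintiles of −log10 q the CpG-poor share was higher in falling than in steady pairs in 4 of the 5, for example 8.83% and 5.601% in the lowest, and was 2.89% and 3.65% in the quintile next to the highest. Promoters with coding starts of different genes on opposite strands made up 9.25% of falling (7.65 to 11.1), 13.1% of steady (12.3 to 13.9) and 11.9% of rising pairs (10.01 to 14.1). From the lowest to the highest quintile of −log10 q the shares were 8.05%, 10.25%, 9.13%, 10.6% and 9.18% in falling pairs. In steady pairs they were 12.9%, 10.17%, 10.5%, 13.75% and 16.6%. Starts were counted within 1 kb of the peak, so a narrower peak covers less sequence in this count.

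Words bound by other promoter factors were counted on both strands of the central 200 bp, so that width did not enter. The GC box of the SP and KLF family, GGGCGG, was found in 64.9% of falling (62.1 to 67.6), 69.1% of steady (68.0 to 70.2) and 68.4% of all eligible pairs, and the first 2 intervals did not overlap. The ETS word CCGGAAG was found in 10.6% (8.92 to 12.5), 11.3% (10.6 to 12.1) and 11.3%, respectively, and the CCAAT box of NF-Y in 17.7% (15.6 to 20.1), 18.1% (17.2 to 19.0) and 18.3%. The intervals of falling and steady pairs overlapped for both, and also for the words of YY1 (AAGATGGCG), CREB (TGACGTCA), ZBTB33 (TCTCGCGA), AP-1 (TGANTCA), the E-box CACGTG and the TATA box TATAAA, each in under 5% of falling and at most 5.92% of all eligible pairs. TGCGCA, a shorter NRF-1 word that can overlap the core, was found in 10.5% of falling (8.84 to 12.4), 19.1% of steady (18.2 to 20.04) and 16.9% of all eligible pairs. Rising pairs held it in 8.34% (6.73 to 10.2), so a low share was not particular to falling pairs, and held the GC box in 67.7% (64.75 to 70.55). The words were not compared at equal −log10 q, which was lower in falling than in steady pairs. Counted over whole peaks, every one of the 10 words was less frequent in falling than in steady pairs, beside the narrower peaks of the former. These matches describe the letters in the window only.

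OXPHOS subunit genes were present among the members at about the rate of all genes. Of 60 with an eligible promoter pair, 9 fell (15%, 7.10 to 26.6) and 4 rose, beside 11.8% of all coding genes falling. Ranked by −log10 q, 3 of the 60 fell (5%), beside 4.51% of all coding genes. The median change of the 60 was -1.76 points, and that of all coding genes -0.111 points. In complex I, the NADH dehydrogenase that feeds electrons into the chain, 4 of 25 subunit genes fell. NDUFB6 had ranks of 62.5 and 41.2, NDUFB8 of 91.5 and 77.1, NDUFA2 of 75.6 and 61.2 and NDUFB11 of 50.9 and 37.8. NDUFB8, NDUFA2 and NDUFB11 share their promoter peaks with HIF1AN, IK and RBM10, respectively. In contrast, NDUFV1, the subunit that binds NADH, rose from 68.2 to 90.3, so subunits of this complex moved both ways.

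None of the 4 genes of complex II (succinate dehydrogenase) and none of the 7 eligible genes of complex IV (cytochrome c oxidase) fell, counts so small that shares of up to 60.2% and 40.96% lie within their intervals. In complex III 1 of 8 fell, CYC1, the cytochrome c1 heme protein, with ranks of 71.0 and 52.4. In ATP synthase (complex V), which makes ATP from the proton gradient, 4 of 16 fell (25%, 7.27 to 52.4) and 2 rose. ATP5MF, a subunit of the membrane part, had ranks of 83.8 and 55.2 and the largest fall of any OXPHOS gene, and its promoter is shared with PTCD1. ATP5F1A, the catalytic-head alpha subunit, had ranks of 64.2 and 43.8 and a −log10 q of 8.74 and 4.62. ATP5F1E stood at 95.7 and 80.4, and ATP5PO, of the peripheral stalk, at 92.8 and 79.7. ATP5PO was the most significant OXPHOS member, with a −log10 q of 84.7 and 69.5 and a core. ATP5MK and ATP5MC1 rose, from 44.2 to 59.0 and from 69.8 to 83.9.

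Of the 9 OXPHOS members 3 held the core with up to 1 mismatch, NDUFB8, NDUFB11 and ATP5PO. All 9 also stood lower by −log10 q, from -1.94 points at NDUFB11 to -16.03 points at ATP5F1A. Their siAATF peak was wider in 8, the exception being ATP5F1A, with 534 bp in siControl and 525 bp in siAATF.

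Other mitochondrial lists were alike, beside 11.8% of all coding genes falling and 10.7% rising. Mitochondrial ribosomal proteins fell at 9 of 59 genes (15.3%, 7.22 to 27.0) and rose at 8, with ranks of 53.7 and 25.5 for MRPS10, 68.4 and 48.5 for MRPL37 and 33.8 and 14.2 for MRPS7. Protein import genes fell at 4 of 28 and rose at 0. Among them PMPCA, a subunit of the presequence-cleaving peptidase, had ranks of 54.3 and 27.1, TIMM44, an anchor of the import motor, of 91.7 and 74.7, and TIMM10B, an intermembrane-space chaperone, of 67.7 and 54.9. Genes for mitochondrial DNA maintenance and transcription fell at 2 of 17, POLG, the mitochondrial DNA polymerase (78.0 and 59.3), and SSBP1, the single-strand binding protein (73.5 and 57.0). The counts were 3 of 38 for assembly factors of the respiratory complexes (COX11, COA3 and TMEM70), 1 of 16 for mitochondrial tRNA synthetases (EARS2), 2 of 18 for the TCA cycle (FH and DLST) and 1 of 14 for glycolysis (PFKL). Of 10 regulators of mitochondrial biogenesis 1 fell, PPRC1, a coactivator related to PGC-1, from 45.9 to 34.7.

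Replication-dependent histones were the list with the highest falling share, 8 of 26 genes (30.8%), beside 11.8% of all coding genes. Because neighbouring histone genes can share 1 peak, the 8 genes stood for 5 of 17 pairs, 29.4% (10.3 to 56.0), an interval that contained the share of all genes. H3C1 with H4C1 had ranks of 54.1 and 32.5, H2AC15 with H2BC15 of 59.7 and 42.9, and H2BC5 of 94.0 and 78.8. H2AC12 with H2BC12 had ranks of 78.2 and 65.3, and H2BC3 of 42.9 and 30.5. The other 12 of these 17 pairs stayed within 10 points, from -6.82 at H2AC25 with H2BC26 to 9.91 at H2AC11 with H2BC11. These counts took the most significant pair of each gene, and 3 further eligible pairs lay at histone genes. Among them, the pair at H2BC6 on chromosome 6 at 26171979 to 26172620, had ranks of 57.6 and 26.9, the largest histone fall, and a −log10 q of 7.01 and 3.08, while the more significant H2BC6 pair stood at 94.4 and 93.8. Another, at H2AC15 with H2BC15, rose from 43.3 to 56.96. The last, at H4C1 alone, was less significant than the peak H4C1 shares with H3C1. It was steady, with ranks of 41.9 and 37.7. Over all 20 pairs 6 fell (30%, 11.9 to 54.3), beside 12.5% of all eligible pairs. Ranked by −log10 q, 7.69% of the 26 genes fell, beside 4.51% of all coding genes. With 32 lists set side by side, this share is a description and was not tested.

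In translation, cytosolic ribosomal proteins fell at 6 of 58 genes (10.3%) and rose at 4 (6.90%), beside 11.8% and 10.7% of all coding genes, with RPL38 at 33.6 and 6.86, RPL3 at 50.7 and 27.95 and RPS27 at 48.0 and 29.6. Translation initiation factors fell at 2 of 39, EIF3F and EIF3L (97.3 and 83.7), and rose at 9. Ribosome biogenesis genes, among which AATF itself acts, fell at 2 of 49, UTP11 (81.97 and 61.3) and NHP2 (84.5 and 68.0), and rose at 5.

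Genes of the nucleus and cell division gave shares on both sides of 11.8%. Spliceosome and SR protein genes fell at 7 of 60, among them SF3B5 (47.9 and 9.41), SRSF8 (68.7 and 50.1) and PRPF40B (85.5 and 71.7). DNA replication genes fell at 3 of 45, namely FEN1, the flap endonuclease (79.6 and 52.2), RFC3, of the clamp loader (81.6 and 59.8), and TIPIN (66.7 and 53.5). Homologous recombination and Fanconi genes fell at 4 of 33, including RAD51C (77.5 and 56.4), RAD52 (89.9 and 72.8) and XRCC3 (38.5 and 26.0). A second, less significant XRCC3 pair fell from 21.7 to 3.67. Over every eligible pair of this list 6 of 36 fell (16.7%), beside 12.5% of all eligible pairs. Cell cycle genes fell at 4 of 39, including CDKN1A, the p53-induced inhibitor p21 (21.6 and 3.59), CCNB2 (73.7 and 61.4) and WEE1, the inhibitory kinase of CDK1 (59.8 and 48.0). None of these lists stood apart, since each interval contained 11.8%.

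RNA polymerase II and III subunits fell at 2 of 19 (10.5%), beside 11.8% of all coding genes. The 2 were POLR2K (49.4 and 18.1) and POLR2G (66.5 and 45.1). Histone lysine methylation enzymes fell at 3 of 53 (5.66%), KDM3B, SETDB2 and NSD3, and kinesins at 2 of 32 (6.25%), KIF1B and KIF13A. Each interval of these lists contained the 11.8% of all coding genes. Zinc finger genes named ZNF, many of which lie in clusters, fell at 36 of 306 (11.8%, 8.38 to 15.9). The largest falls among them were ZNF616 (75.9 and 38.4), ZNF839 (60.6 and 24.1) and ZNF347 (78.6 and 44.1), and ZNF347 held a core.

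Proteostasis genes fell at 3 of 36 for the proteasome (PSMG3, PSME1 and PSMC2), 5 of 30 for ubiquitin-conjugating enzymes, 4 of 32 for DNAJ co-chaperones and 2 of 44 for autophagy and the V-ATPase. These shares were 8.33%, 16.7%, 12.5% and 4.55%, and each interval contained the 11.8% of all coding genes. UBE2L3, which works with parkin and other RBR ligases, had ranks of 61.7 and 33.1, UBE2J1 of 77.9 and 61.9 and UBE2F of 67.9 and 55.6. DNAJB14 stood at 27.4 and 6.28, DNAJC6, the auxilin of clathrin uncoating, at 97.8 and 85.3, and DNAJC2 shares 1 falling peak with PSMC2. A second, less significant DNAJC6 pair fell further, from 54.8 to 25.7. Over every eligible pair of the DNAJ list 6 of 36 fell (16.7%), beside 12.5% of all eligible pairs. ATG16L2 had ranks of 51.1 and 14.3 and ATP6V1B2, a V-ATPase subunit, of 94.6 and 83.7.

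Of 8 eligible genes for AATF and its partners 1 fell (12.5%), beside 11.8% of all coding genes. It was SP1, the GC-box factor, with a fold enrichment of 7.59 and 5.10 and ranks of 74.6 and 41.7. Its −log10 q was 17.1 and 8.43, it held no core, and it also fell by 16.2 points when ranked by −log10 q.

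**Figure D5:**
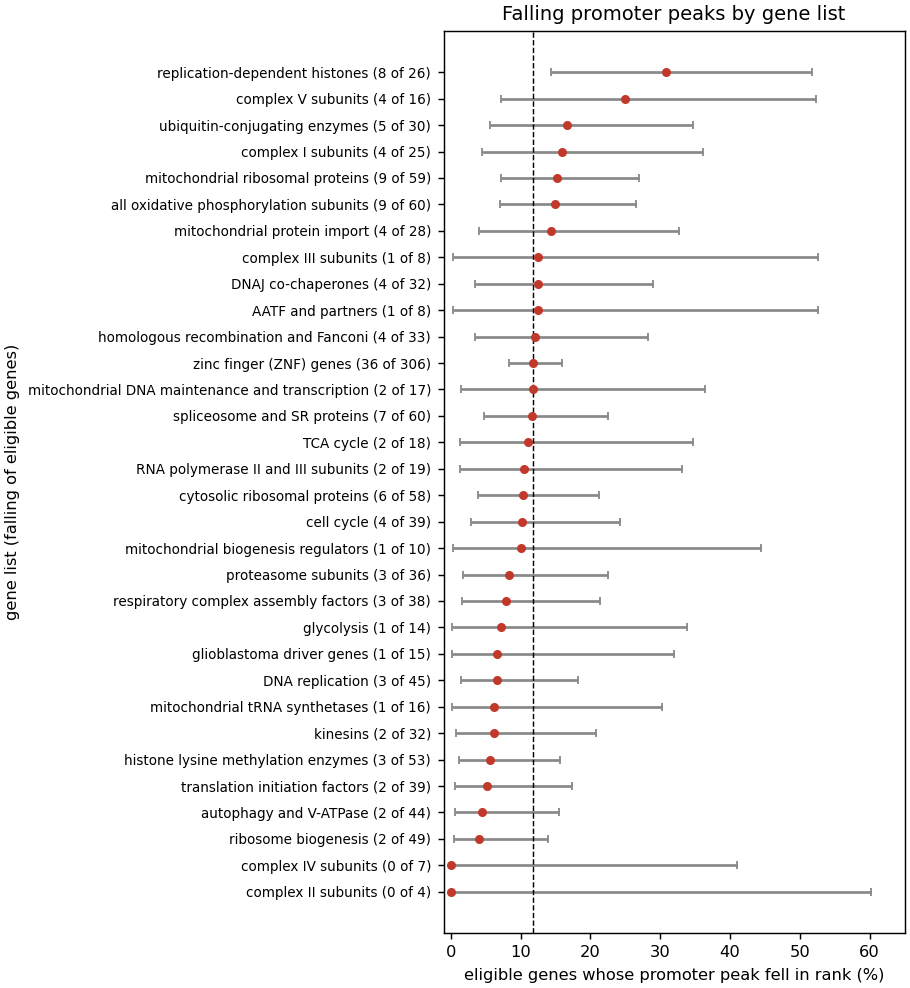
Share of the genes with an eligible promoter pair whose pair fell in rank (horizontal axis, percent) for each gene list (vertical axis, with falling and eligible genes). Points are shares, bars exact 95% intervals from counting error, and the dashed line the 11.8% of all coding genes; the bar of the replication-dependent histones, 14.3 to 51.8, lies clear of the line when genes are counted, but counted over their 17 pairs it spans 10.3 to 56.0 and crosses it, as do the bars of the other lists.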

How the data were processed

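NRF-1 chromatin immunoprecipitation by ChIPmentation, in which Tn5 transposase adds the adapters, was sequenced in paired-end mode from U251 cells, siControl and siAATF. Per the study's methods, reads were aligned to hg19 with Bowtie2 and peaks called with MACS2 in an ATAC-seq pipeline with default settings. Versions of these 2 tools, an input control and any pooling of duplicates are not given in the sources used here. The authors deposited 1 broad peak list per condition, with positions, the fold enrichment (a ratio to local background), −log10 p and −log10 q. The display score they deposited, and the −log10 p, were not used. The lists hold no read totals, so the depth was unknown, and ranks were taken within each list. An ATAC-seq pipeline can shift or extend reads from the cut site, which moves peak edges.

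Pairs needed an overlap of at least 1 base. Coding starts came from GENCODE release 44 lifted to GRCh37, and sequences from the GRCh37 genome. Ranks, shares and exact Clopper-Pearson 95% intervals were computed in Python 3.11.15 with numpy 2.4.6, scipy 1.17.1, pandas 2.3.3 and pysam 0.24.0, and the pairing and ranking were tested on simulated data. Figures were drawn with matplotlib 3.10.9.

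The members, the 31 gene lists and a combined OXPHOS list, the words and the settings were chosen with earlier results of these data known. Named genes were the 12 members with the most negative change, the 12 with the highest siControl −log10 q, 3 on each side of the limit, every OXPHOS member, up to 3 members of each other list by size of fall, and the 8 exact-core members of highest −log10 q. Named outside this rule were the members JAK3, the second pairs at DNAJC6 and XRCC3 and the remaining falling histone pairs. Pairs that are not members were also named, namely other histone pairs and the OXPHOS genes that rose. Gene lists were counted by the most significant eligible pair of each gene, except where every eligible pair is stated. A less significant falling pair of a gene was thus left out of the main counts. Alternatives ranked by −log10 q, by fold times width or among eligible pairs, and changed the limit, the minimum −log10 q, the overlap, the promoter window and the core. A result on 1 further gene is not reported here.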

Additional observations from a re-analysis of the deposited data

How the results depend on the processing

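No paired analysis was possible because each condition had 1 list, and leaving out a replicate was likewise not possible. Of 113 values recomputed over 38 results and 11 alternatives, 49 stayed within the 95% interval of the value given (counts within 1.5 times, GC content within its quartiles) and 64 did not. Windows of 500 bp and 2 kb, a reciprocal overlap of 50% and no minimum −log10 q moved none of the values computed under them past those limits.

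Ranking by −log10 q gave 481 falling pairs (5.15%), of which 463 were members, with a core in 1.66% and a bidirectional promoter in 7.07%. Of all coding genes 4.51% then fell. The share was 0 for complex III, assembly factors, mitochondrial tRNA synthetases, mitochondrial DNA maintenance, glycolysis, ribosome biogenesis, the proteasome, homologous recombination, kinesins, histone methylation enzymes, mitochondrial biogenesis regulators and glioblastoma drivers. It was 5% for all OXPHOS genes, 4% for complex I, 6.78% for mitochondrial ribosomal proteins, 3.57% for protein import, 3.33% for the spliceosome and for ubiquitin-conjugating enzymes, 2.56% for the cell cycle, 3.13% for DNAJ, 3.27% for zinc finger genes and 7.69% for histones. Shares within their main interval were 12.5% for complex V and for AATF with partners, 11.1% for the TCA cycle and 10.5% for RNA polymerase. Cytosolic ribosomal proteins stood at 5.17%, DNA replication at 4.44%, initiation factors at 2.56% and autophagy at 2.27%. Complexes II and IV stayed at 0. A limit of -20 points gave 288 pairs (3.08%), with a core in 4.17% and a bidirectional promoter in 7.64%, and 2.86% of coding genes. The share was then 0 for the lists at 0 above, except ribosome biogenesis and homologous recombination (3.03%), and also for the TCA cycle and cell cycle. It was 5% for all OXPHOS genes, 4% for complex I, 1.70% for mitochondrial ribosomal proteins, 3.57% for import, 3.45% for cytosolic ribosomal proteins, 1.67% for the spliceosome, 3.33% for ubiquitin-conjugating enzymes, 3.13% for DNAJ, 3.60% for zinc finger genes and 7.69% for histones. Shares within their main interval were 12.5% for complex V and for AATF with partners, 10.5% for RNA polymerase and 4.44% for DNA replication. Initiation factors stood at 2.56%, autophagy at 2.27% and ribosome biogenesis at 2.04%. Complexes II and IV again stayed at 0.

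With the same minimum for siAATF peaks 9.73% of pairs fell, with a core in 15.1%. Ranks taken among eligible pairs gave 17.0% falling and a core in 22.5%, and kept 987 members. Fold times width, added after seeing the data, gave 418 pairs (4.47%), a core in 8.13% and 157 members kept. The exact core was in 1.80% of members and a core within 100 bp of the midpoint in 8.997%. The causes were not tested. The main limits are 1 list per condition and unknown depth: how far ranks would move between replicates of the same condition was not measured.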
